A study of Mus musculus with 15 samples.

Results

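The vessels of mouse liver tumors were examined through 34 genes of endothelial cells, the cells that line blood and lymph vessels. The genes were found by symbol among the probes of the array, where 43 of 55681 probes carried one of the 34 symbols, out of 24336 symbols in all. They comprise 13 genes of endothelial cells in general (pan-endothelial), 12 genes of liver sinusoids, 2 ligands by which sinusoidal cells support Wnt signaling in neighboring hepatocytes, 5 genes of capillaries and larger vessels, and 2 genes of sprouting vessels. RNA of whole tumor tissue was hybridized to Agilent mouse arrays, 1 array per tumor, in 3 groups of 5 tumors. All mice were on the C57/BL6J background and were injected intraperitoneally with carbon tetrachloride (CCl4), a hepatotoxin that causes fibrosis, at 0.5 µl per g body weight for 16 weeks from the age of 6 weeks. The sample labels and the study's methods give different injection schedules. The study collected mice at 24 and at 36 weeks of age and followed control mice to as much as 90 weeks. The age at which each arrayed tumor was collected was not given in the sources used here, so age cannot be told apart from genotype in the comparisons with p53f/f HCC. The p53f/f HCC group held hepatocellular carcinomas of control mice with floxed Trp53 and no deletion, and its 5 tumors came from 4 mice because mouse 3717 gave 2. The p53LKO HCC group held hepatocellular carcinomas of mice with liver-specific Trp53 deficiency, and the p53LKO ICC group held tumors of such mice that the labels name intrahepatic cholangiocarcinoma, a tumor of bile duct type. The 4 mice 3976, 5283, 3731 and 3733 gave both an HCC and an ICC. The deletion is described as liver-specific, and what drives it is not given in the sources used here.

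Endothelial cells of the liver are of several kinds. Sinusoidal cells are fenestrated and lack a basement membrane, and they clear particles and macromolecules from portal blood through scavenger receptors and lectins such as Stab1, Stab2, Lyve1, Clec4g and Fcgr2b. Under chronic injury they can lose fenestrae and sinusoidal markers and gain Cd34 and Vwf, a change known as capillarization, and the arterial vessels that feed liver tumors are known to have capillary features. Sprouting vessels carry tip cells marked by the Notch ligand Dll4 and the Tie2 antagonist Angpt2.

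Trp53, the gene deleted in the p53LKO mice, had log2 levels of -1.27 to -0.68 in p53f/f HCC, -3.86 to -2.75 in p53LKO HCC and -4.19 to -2.31 in p53LKO ICC, with no overlap between p53f/f and p53LKO tumors. Its probe was well above background in 5 p53f/f HCC, 4 p53LKO HCC and 2 ICC, so some p53LKO levels are values at background. Levels here are log2 processed signals from which the array's own 75th percentile was subtracted, so a level of 0 lies at that percentile, and levels of different genes are not comparable because probes differ in brightness. From 55.1% to 70.1% of probes were well above background on p53f/f HCC arrays, 37.0% to 62.1% on p53LKO HCC arrays and 42.5% to 47.0% on ICC arrays, and 0 probes were saturated. The arrays lay on 2 slides with an upper and a lower row, with every p53f/f HCC in an upper row and every ICC in a lower row. Each tumor was 1 sample, and p values measure the spread between tumors and not between mice. By the labels the 5 p53f/f HCC came from 4 mice, and 4 p53LKO mice gave both an HCC and an ICC. The samples are therefore not all independent.

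The probe of Wnt2, a Wnt ligand of central vein and sinusoidal endothelium, was well above background on 1 array of 15 and was not tested. The other 33 members were tested in all 3 comparisons, each by its brightest probe. The probe of Tek, the angiopoietin receptor Tie2, was well above background in 5 p53f/f HCC, 3 p53LKO HCC and 0 ICC, so that its level in ICC is only a bound. In such bulk RNA, fewer endothelial cells and less RNA per endothelial cell cannot be told apart.

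Upstream sequences of 250 bases before the transcript start were available for 18 of the 34 members from RefSeq (GRCm38.p6). The windows of 5 members called in at least 1 comparison are shown here, with the letters AGGAAG (core of many ETS factor sites) in capitals, on either strand. ETS factors such as Erg are known regulators of endothelial genes.
Dll4 (chr2:119325534-119325783, plus strand): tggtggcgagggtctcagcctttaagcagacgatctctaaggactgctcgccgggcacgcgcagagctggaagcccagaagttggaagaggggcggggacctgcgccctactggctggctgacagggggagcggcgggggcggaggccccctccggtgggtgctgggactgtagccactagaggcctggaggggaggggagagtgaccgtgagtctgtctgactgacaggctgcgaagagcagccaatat
Flt4 (chr11:49609429-49609678, plus strand): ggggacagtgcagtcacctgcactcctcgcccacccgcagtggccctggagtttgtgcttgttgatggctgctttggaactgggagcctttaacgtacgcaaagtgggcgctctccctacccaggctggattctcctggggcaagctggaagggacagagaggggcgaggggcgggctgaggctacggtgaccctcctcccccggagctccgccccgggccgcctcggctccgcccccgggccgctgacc
Fcgr2b (chr1:170976072-170976321, minus strand): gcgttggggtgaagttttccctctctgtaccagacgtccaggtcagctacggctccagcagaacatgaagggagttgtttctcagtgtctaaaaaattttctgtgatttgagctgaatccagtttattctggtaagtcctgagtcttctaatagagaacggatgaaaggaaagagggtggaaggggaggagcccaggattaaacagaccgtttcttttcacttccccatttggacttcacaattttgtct
Stab2 (chr10:87007943-87008192, minus strand): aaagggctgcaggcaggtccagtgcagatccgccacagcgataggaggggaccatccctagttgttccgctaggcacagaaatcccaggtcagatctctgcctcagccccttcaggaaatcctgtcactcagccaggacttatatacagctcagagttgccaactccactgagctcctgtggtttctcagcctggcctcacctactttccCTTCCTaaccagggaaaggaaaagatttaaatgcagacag
Cd34 (chr1:194938571-194938820, plus strand): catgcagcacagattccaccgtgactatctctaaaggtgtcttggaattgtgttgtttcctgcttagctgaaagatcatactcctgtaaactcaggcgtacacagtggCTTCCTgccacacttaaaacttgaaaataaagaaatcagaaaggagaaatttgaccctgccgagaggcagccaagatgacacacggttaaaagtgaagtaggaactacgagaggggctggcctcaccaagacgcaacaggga
AGGAAG stood in 9 of the 18 member windows and in 29.2% of 27025 windows, 1 per gene symbol. Stab2 held it on the opposite strand 40 to 35 bases before the start and Cd34 at 142 to 137 bases, whereas Dll4, Flt4 and Fcgr2b held none. Of all 8 called members with a window, 2 held it, as Tek, Clec1b and Ehd3 held none either. The GATA letters AGATAA stood in 0 of 18 member windows and in 10.3% of all windows, and the SOX letters ACAATG in 1 of 18, that of Clec4g, and in 11% of all. These counts describe letters in short windows and no binding was measured.

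The genes of endothelial cells in general were called in few cases. Of the 13 pan-endothelial genes, 1 was lower in p53LKO HCC than in p53f/f HCC, and limma called 0 in either comparison with ICC, as did the methods' t-test, where called means a fold change over 2 with a Benjamini-Hochberg adjusted p under 0.05 over all probes. Over all genes 5.19% were called higher and 10.8% lower in p53LKO against p53f/f HCC, 13.2% and 15.2% in ICC against p53LKO HCC and 10.8% and 11.9% in ICC against p53f/f HCC, shares at which few calls are to be had among 13 genes. The median log2 fold change of the 13 genes was -0.05 for p53LKO HCC against p53f/f HCC, 0.05 for ICC against p53LKO HCC and 0.04 for ICC against p53f/f HCC. Over all genes tested the medians were 0.06, -0.17 and -0.18. At an unadjusted p under 0.05 stood 1 gene in ICC against p53LKO HCC, Kdr, and 3 in ICC against p53f/f HCC, Kdr, Tek and Robo4, all with negative changes. Cdh5, the VE-cadherin of endothelial junctions, changed by -0.18 (SE 0.42), 0.22 (SE 0.40) and 0.04 (SE 0.27) in the same order. Pecam1, the junction molecule CD31, changed by -0.15 (SE 0.29), 0.01 (SE 0.29) and -0.15 (SE 0.17). Tie1, Eng, Erg, Sox18, Esam, Icam2, Nos3, Flt1 and Robo4 also stayed short of the thresholds in each comparison. Those genes had fold changes between -0.77 and 0.40.

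For the mean level of the 13 pan-endothelial genes, differences between single tumors were larger than those between groups. This did not hold for each gene, as Tek changed by -1.06 between the HCC groups. The Tek levels ran from -3.11 to -2.10 in p53f/f HCC and from -3.98 to -3.02 in p53LKO HCC. Within p53LKO HCC, the tumor of mouse 3731 held the highest level of 11 of the 13 pan-endothelial genes and the tumor of mouse 5283 the lowest of 8. Within ICC, tumor 3976 T8 was highest for 11 of 13. Within p53f/f HCC, tumor 3717 T1 was highest for 10 of 13. The level of the list, taken as the mean over its genes of the deviation from each gene's mean over the 15 arrays, ran from -0.64 to 1.06 in p53LKO HCC, from -0.38 to 0.58 in p53f/f HCC and from -0.34 to 0.53 in ICC, all on the log2 scale. The group means were -0.02 ± 0.67, 0.06 ± 0.35 and -0.04 ± 0.34 (SD, n = 5 each).

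**Figure D1:**
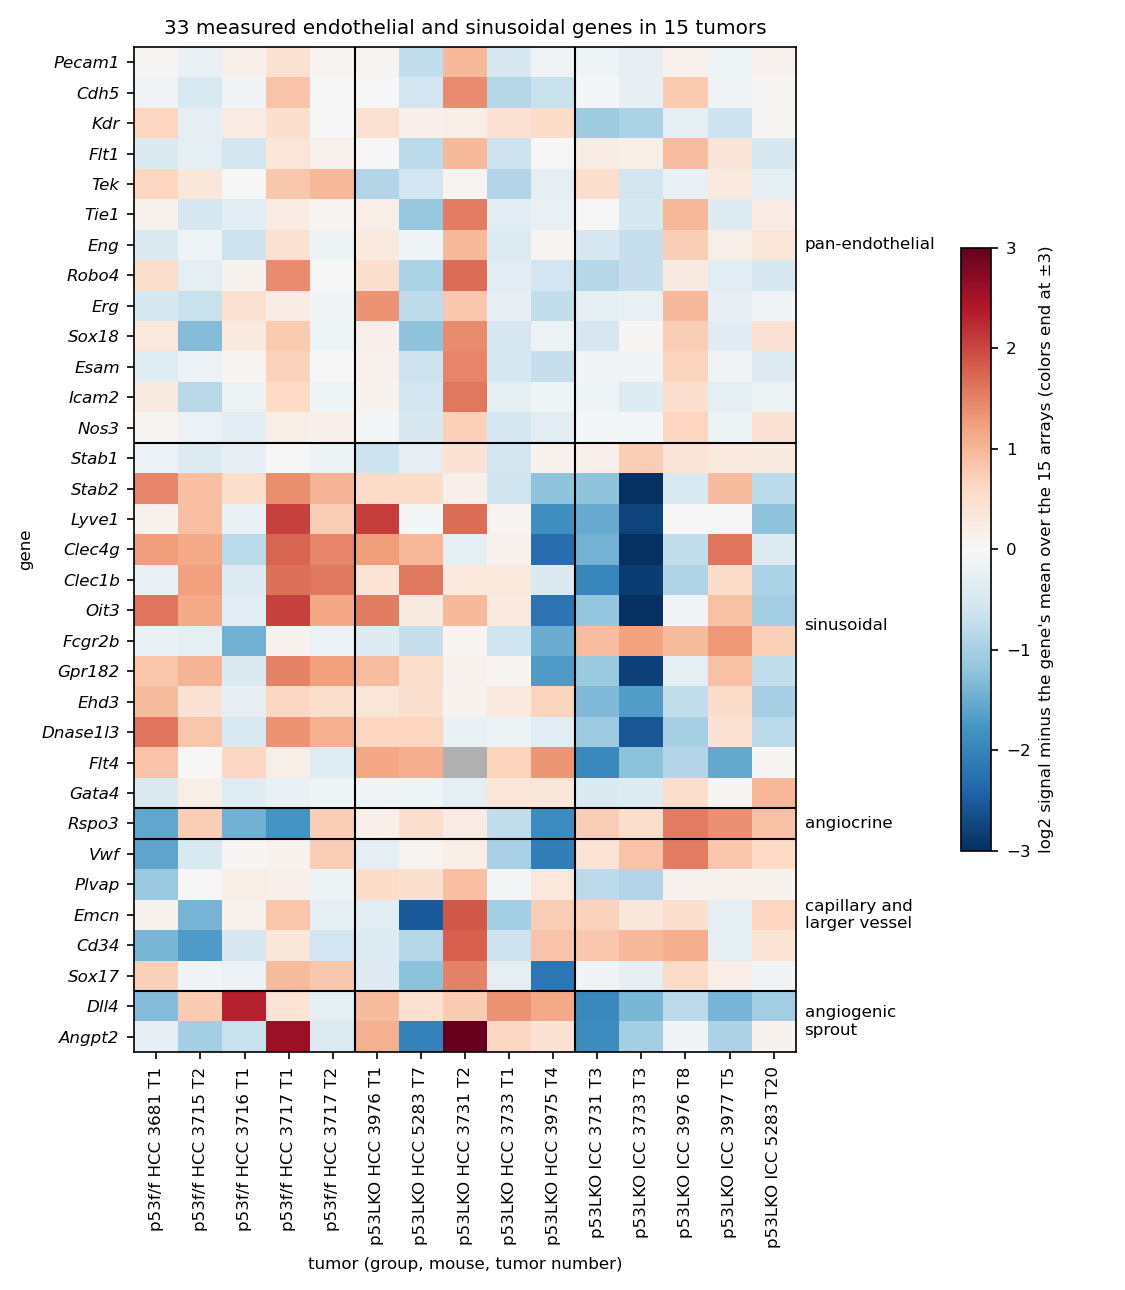
Log2 level of the 33 measured members (rows, by list) in the 15 tumors (columns, by group), each as the deviation from the gene's mean over the 15 arrays, where gray marks a spot that was left out. Pan-endothelial genes are high together in p53LKO HCC 3731 T2 and ICC 3976 T8, and ICC 3733 T3 has the lowest level among the ICC for 8 of the 12 sinusoidal genes.

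Among the pan-endothelial receptors of angiogenic ligands, Kdr and Tek departed from the others. Kdr, the main receptor for VEGF-A, had levels of 4.06 to 4.47 in p53LKO HCC and 2.84 to 3.96 in ICC. All ICC lay below all p53LKO HCC. The fold change of -0.94 on the log2 scale (SE 0.23, adjusted p = 0.00693, exact permutation p = 0.00794) fell just short of the 2-fold limit. A second Kdr probe changed by -0.36 between the HCC groups, where the brighter one changed by 0.14, by -0.70 in ICC against p53LKO HCC and by -1.07 for ICC against p53f/f HCC, where it was called, while the brighter probe changed by -0.80. Flt1, the other VEGF-A receptor of the list, was 0.34 higher (SE 0.35).

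Tek was lower in p53LKO HCC than in p53f/f HCC by 1.06 on the log2 scale (a change of -1.06, SE 0.25, adjusted p = 0.00852, exact permutation p = 0.0159), and 4 of 5 p53LKO HCC lay below every p53f/f HCC. Its log2 level was -2.53 ± 0.40 in the 5 control HCC and -3.60 ± 0.41 in the 5 p53LKO HCC (mean ± SD). The probe was not well above background in p53LKO HCC 3976 T1 and 5283 T7. The p53LKO HCC mean and the change thus rest in part on values at background.

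Trp53-deficient and control HCC differed in few of the 33 members. In p53LKO HCC against p53f/f HCC, 0 members were called higher by limma, where 5.19% of 17848 genes were, and the methods' t-test also called 0. An unadjusted p under 0.05 was found for 2 members with positive changes, Flt4 and Plvap. Called lower were 2 members, Tek and Stab2, where 10.8% of all genes were. Stab2, the hyaluronan scavenger receptor stabilin-2 of sinusoids, was at 2.63 to 3.55 in p53f/f HCC and at 0.89 to 2.68 in p53LKO HCC, with 3 of 5 below every p53f/f HCC. It changed by -1.17 on the log2 scale (SE 0.35, adjusted p = 0.027, exact permutation p = 0.0238).

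Other sinusoidal genes had negative values short of the thresholds in this contrast. Clec4g, a lectin also called LSECtin, changed by -1.00 (SE 0.67), and Oit3, a secreted protein typical of sinusoidal cells, by -0.95 (SE 0.66). The orphan receptor gene Gpr182 changed by -0.84 (SE 0.49) and the DNA-degrading enzyme gene Dnase1l3 by -0.75 (SE 0.38). Flt4, the receptor VEGFR-3 of lymphatic and sinusoidal endothelium, ran the other way, with 0.80 (SE 0.27, adjusted p = 0.0446), under 2-fold. One Flt4 spot, that of p53LKO HCC 3731 T2, carried an outlier flag and was left out, so its values rest on 4 p53LKO HCC arrays. The medians were -0.33 for the 12 sinusoidal genes and -0.14 for the 5 capillary genes.

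Neither call was held in every setting. With the 2 tumors of mouse 3717 averaged to 1 sample, 0 members were lower, since Tek changed by -0.98 and Stab2 by -1.13 (adjusted p = 0.056). Stab2 was not called without p53f/f HCC 3681 T1, p53f/f HCC 3717 T1, p53LKO HCC 3733 T1 or p53LKO HCC 3975 T4 (0.046 to 0.062 as the adjusted p, with a change of -0.89 without 3975 T4), and Tek changed by under 2-fold without p53f/f HCC 3717 T2, p53LKO HCC 3976 T1 or p53LKO HCC 3733 T1, with -0.96 to -0.97. Scaling to spike-in probes moved the median of all genes from 0.06 to 0.80 and left 0 members lower and 5 higher, namely Eng, Flt4, Plvap, Cd34 and Dll4, where 4.42% and 34.9% of all genes were lower and higher.

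The ICC differed from HCC of the same genotype in 7 of 33 members, in both directions. Higher in ICC were Fcgr2b, Vwf and Rspo3, which is 3 members where 13.2% of 16961 genes were higher. Lower were Dll4, Flt4, Clec1b and Ehd3, which is 4 members where 15.2% of genes were lower. As shares of the members these counts are near those of all genes. Of the 12 sinusoidal genes 1 was higher and 3 were lower, with a median of -1.01, against a median of -0.17 for all genes. Of the 5 capillary genes 1 was higher, with a median of 0.59.

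Dll4, the Notch ligand of tip and arterial cells, had the largest change of the members here. Its log2 level in p53LKO HCC was -0.15 in 3976 T1, -0.63 in 5283 T7, -0.33 in 3731 T2, 0.25 in 3733 T1 and 0.04 in 3975 T4. In ICC it was -3.03 in 3731 T3, -2.47 in 3733 T3, -1.89 in 3976 T8, -2.50 in 3977 T5 and -2.15 in 5283 T20. The Dll4 probe was well above background in 4 of 5 ICC, all but 3731 T3. Every ICC lay below every p53LKO HCC by more than 1 on the log2 scale, while p53f/f HCC ran from -2.40 to 1.21 and reached into the ICC range. The change was -2.24 (SE 0.24, adjusted p = 0.000102, exact permutation p = 0.00794, the smallest that 10 arrays allow). Angpt2, the other sprouting gene, changed by -1.47 (SE 0.82, adjusted p = 0.162), and its levels spread from -2.26 to 3.22 within p53LKO HCC. The Angpt2 probe was not well above background in p53LKO HCC 5283 T7, which had that lowest level, or in ICC 3731 T3.

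Flt4 was lower in every ICC as well. Its levels in p53LKO HCC were 0.44 in 3976 T1, 0.36 in 5283 T7, -0.06 in 3733 T1 and 0.61 in 3975 T4, with none for 3731 T2. The ICC had -2.66 in 3731 T3, -1.95 in 3733 T3, -1.61 in 3976 T8, -2.25 in 3977 T5 and -0.68 in 5283 T20. The Flt4 probe was well above background in 4 of 5 ICC, all but 3731 T3, and ICC 5283 T20 was nearest to the HCC and still below all 4 of them. The change was -2.17 (SE 0.36, adjusted p = 0.00132, exact permutation p = 0.0159 over 9 arrays).

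Fcgr2b, the inhibitory Fc receptor by which sinusoidal cells take up immune complexes, was higher in ICC, unlike the other sinusoidal genes called. It was at 0.88, 0.56, 1.33, 0.65 and -0.22 in p53LKO HCC 3976 T1, 5283 T7, 3731 T2, 3733 T1 and 3975 T4. The ICC 3731 T3, 3733 T3, 3976 T8, 3977 T5 and 5283 T20 had 2.18, 2.47, 2.22, 2.57 and 1.97. All 5 ICC lay above all 10 HCC of both genotypes. The change was 1.64 against p53LKO HCC (SE 0.26, adjusted p = 0.000823, exact permutation p = 0.00794) and 1.42 against p53f/f HCC (SE 0.28, adjusted p = 0.00352, exact permutation p = 0.00794). Macrophages and B cells are also known to express Fcgr2b. Of 8 macrophage and Kupffer cell markers limma called 0 between ICC and p53LKO HCC, with 1 at an unadjusted p under 0.05, and 2, Adgre1 and Cd68, were higher in ICC than in p53f/f HCC, with 1.06 and 1.00. The level of that list ran from -0.80 to 0.72 in p53f/f HCC, -0.80 to 1.28 in p53LKO HCC and -1.39 to 1.25 in ICC. Its part in the result was not tested.

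Vwf, the von Willebrand factor of larger vessels and activated capillaries, was at 0.71, 1.09, 1.20, 0.04 and -1.07 in p53LKO HCC 3976 T1, 5283 T7, 3731 T2, 3733 T1 and 3975 T4. It was at 1.43, 1.87, 2.54, 1.82 and 1.61 in ICC 3731 T3, 3733 T3, 3976 T8, 3977 T5 and 5283 T20. The groups did not overlap, although ICC 3731 T3 lay only slightly above p53LKO HCC 3731 T2. The change was 1.46 (SE 0.41, adjusted p = 0.015, exact permutation p = 0.00794). Against p53f/f HCC, where 3717 T2 at 1.75 lay within the ICC range, Vwf changed by 1.07 (SE 0.39, adjusted p = 0.0542) and was not called. Megakaryocytes also make Vwf, and 0 of 6 platelet and megakaryocyte markers were called between these groups by limma, with 2 at an unadjusted p under 0.05. The level of that list ran from -0.57 to 0.63 in p53LKO HCC and from -0.47 to 0.48 in ICC, and its part in the Vwf result was not tested.

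Rspo3, an R-spondin that amplifies Wnt signaling and is made by central vein endothelium and by fibroblasts, was at -0.67, -0.30, -0.56, -1.55 and -2.71 in p53LKO HCC 3976 T1, 5283 T7, 3731 T2, 3733 T1 and 3975 T4. In ICC 3731 T3, 3733 T3, 3976 T8, 3977 T5 and 5283 T20 it was at -0.07, -0.28, 0.72, 0.55 and 0.07. The highest HCC and the lowest ICC nearly touched. The change was 1.36 (SE 0.43, adjusted p = 0.0243, exact permutation p = 0.00794). Of 10 stellate cell and fibroblast markers 7 were also higher in ICC in both comparisons with HCC. Their list level ran from -2.00 to -0.44 in p53f/f HCC, -0.96 to 0.98 in p53LKO HCC and 0.98 to 1.91 in ICC, and its part in the Rspo3 result was not tested.

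Clec1b and Ehd3 were lower in ICC with overlap. Clec1b, the podoplanin receptor CLEC-2, which sinusoidal cells share with platelets, changed by -1.67 (SE 0.57, adjusted p = 0.0341). Of the dimmer Clec1b probes, 1 changed by -1.62 (adjusted p = 0.0536) and 1 by -0.56 (adjusted p = 0.172) there. Ehd3, a membrane-trafficking protein of liver sinusoids, changed by -1.23 (SE 0.36, adjusted p = 0.0171). For each of these genes 4 of 5 ICC lay below every p53LKO HCC, and the exception was ICC 3977 T5 with levels of 1.88 and 2.53.

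**Figure D2:**
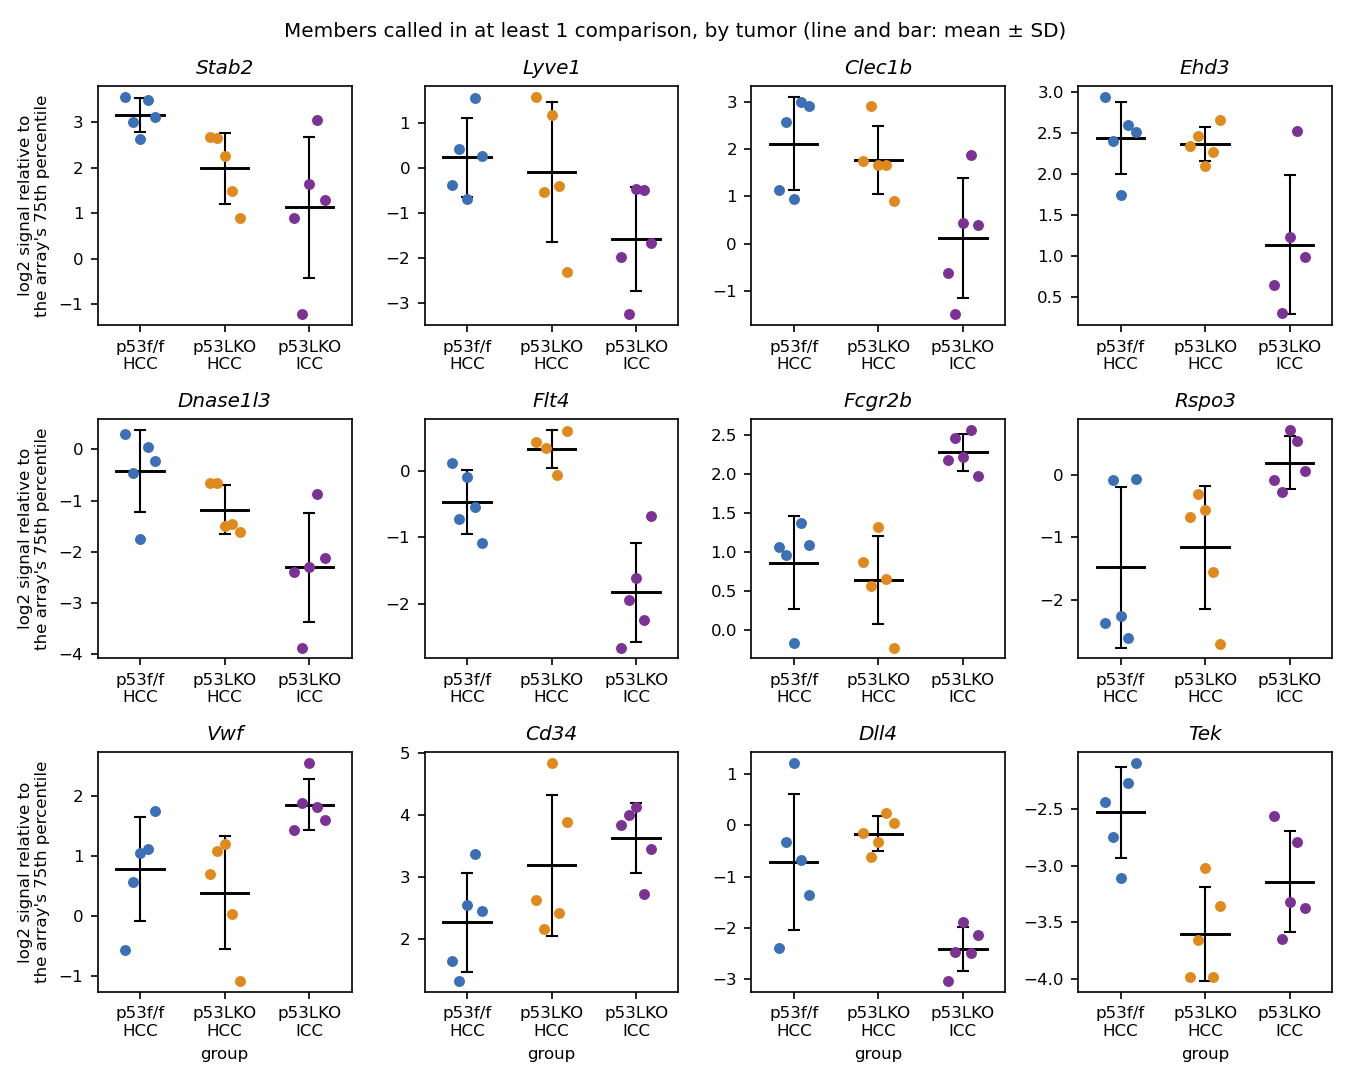
Log2 level relative to the array's 75th percentile (vertical axis) of the 12 members called in at least 1 comparison, by group (horizontal axis), where points are tumors and lines with bars are means ± SD. Fcgr2b is above both HCC groups in all 5 ICC, and Dll4 and Flt4 are below p53LKO HCC in all 5 ICC.

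Dll4, Flt4 and Fcgr2b kept their calls between ICC and p53LKO HCC in every setting in which they were tested and without any single tumor, as did Vwf and Ehd3 without any single tumor. Clec1b was not called without p53LKO HCC 3976 T1, 5283 T7 or 3733 T1, or ICC 3731 T3 or 3733 T3, with adjusted p of 0.054 to 0.076, and Rspo3 was not called without p53LKO HCC 3733 T1 or 3975 T4, or ICC 3976 T8 or 3977 T5, where it changed by 0.97 to 1.27. In 15 other settings, such as other scalings, filters and blocks, Rspo3 and Clec1b lost their calls in 8 each, Ehd3 in 5 and Vwf in 4, all with the same direction. With the row of the slide as a block, 1 member was higher and 2 were lower, where 10.4% and 13.2% of all genes were. Within the lower rows, which held 2 p53LKO HCC and all 5 ICC, Fcgr2b differed by 1.56, Dll4 by -2.02 and Flt4 by -2.23, against 0.95 for Vwf and 0.68 for Rspo3. On slide 2 the differences were -2.24 for Dll4, -1.90 for Flt4 and 1.72 for Fcgr2b. On slide 1 Fcgr2b differed by 1.46, while the sole ICC there, 3731 T3, had Dll4 and Flt4 not well above background and gives no exact difference for them.

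The 4 mice with both tumors gave a comparison within the animal. In each of these mice the level of the sinusoidal list was lower in the ICC than in the HCC, with differences of -0.92 in mouse 3976, -0.82 in mouse 5283, -1.28 in mouse 3731 and -2.05 in mouse 3733. Stab2, Lyve1, Clec4g, Clec1b, Oit3, Gpr182, Ehd3 and Dnase1l3 were lower in 4 of 4 ICC. Flt4 was lower in all 3 pairs in which it was measured. Lyve1, a hyaluronan receptor of sinusoids and lymphatics, differed by -2.06, -1.14 and -3.17 in mice 3976, 5283 and 3731. Oit3 differed by -1.65, -1.30 and -2.12 in mice 3976, 5283 and 3731. In ICC 3733 T3 the probes of Oit3, Lyve1 and Dnase1l3 were not well above background, and in ICC 3731 T3 those of Dnase1l3 and Flt4 were not. The differences of these genes and the list levels of mice 3733 and 3731 thus rest in part on values at background. The list level of p53LKO HCC 3731 T2 also lacks Flt4, which has no value there. Fcgr2b was higher in the ICC of all 4 mice, with 1.34, 1.41, 0.86 and 1.82, and Vwf and Rspo3 were higher in all 4 as well. Stab1 was higher in 3 of 4 ICC and Gata4 in 2 of 4, so the sinusoidal list had no single direction gene by gene.

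A further list of 10 sinusoidal genes that are not among the 34 members did not run the same way. Its level differed by 0.68, 0.37, -0.16 and 0.92 in mice 3976, 5283, 3731 and 3733, and it was 0.29 ± 0.16 in ICC, -0.41 ± 0.59 in p53LKO HCC and 0.12 ± 0.32 in p53f/f HCC (SD, n = 5 each).

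The pan-endothelial list did not follow the sinusoidal list. Its level was higher in the ICC by 0.35, 0.63 and 0.09 in mice 3976, 5283 and 3733, and it was lower by 1.29 in mouse 3731 (a difference of -1.29), whose HCC had the highest level of all 15 tumors. The capillary list was higher in the ICC of 3 of 4 mice and differed by -1.04 in mouse 3731. Kdr was lower in the ICC of all 4 mice, as was Dll4. The hepatocyte list differed by -1.32, -1.66, -0.38 and -2.92 in mice 3976, 5283, 3731 and 3733, the red blood cell list by -1.93, -1.88, -0.87 and -1.99, and the macrophage and Kupffer cell list by -0.26, -1.18, -1.11 and -1.32, all in the same direction as the mean level of the sinusoidal list. Among the ICC the macrophage list was highest in 3977 T5, at 1.25, and among the p53LKO HCC it was lowest in 3975 T4, at -0.80. Their part in the sinusoidal result was not tested.

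With the mouse as a block, limma called 1 member higher, Fcgr2b, and 10 lower between ICC and p53LKO HCC, where 11% and 13.7% of all genes were. The 10 were Dll4, Flt4, Clec1b and Ehd3 with Stab2, Lyve1, Clec4g, Oit3, Gpr182 and Dnase1l3. The latter 6 had changes of -1.60 to -2.61 and adjusted p of 0.0129 to 0.0383. Vwf and Rspo3 were not called, with changes of 1.10 (adjusted p = 0.0648) and 0.88 (adjusted p = 0.0545). In this fit p53LKO HCC 3975 T4 and ICC 3977 T5 carry no weight, as each is the sole tumor of its mouse. In the same 8 tumors without the block, an alternative chosen after seeing the data, 2 members were higher and 8 lower, where 11.3% and 14.4% of all genes were. ICC 3977 T5 had the highest level of 8 of the 12 sinusoidal genes among the ICC, and p53LKO HCC 3975 T4 the lowest of 8 among the p53LKO HCC.

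**Figure D3:**
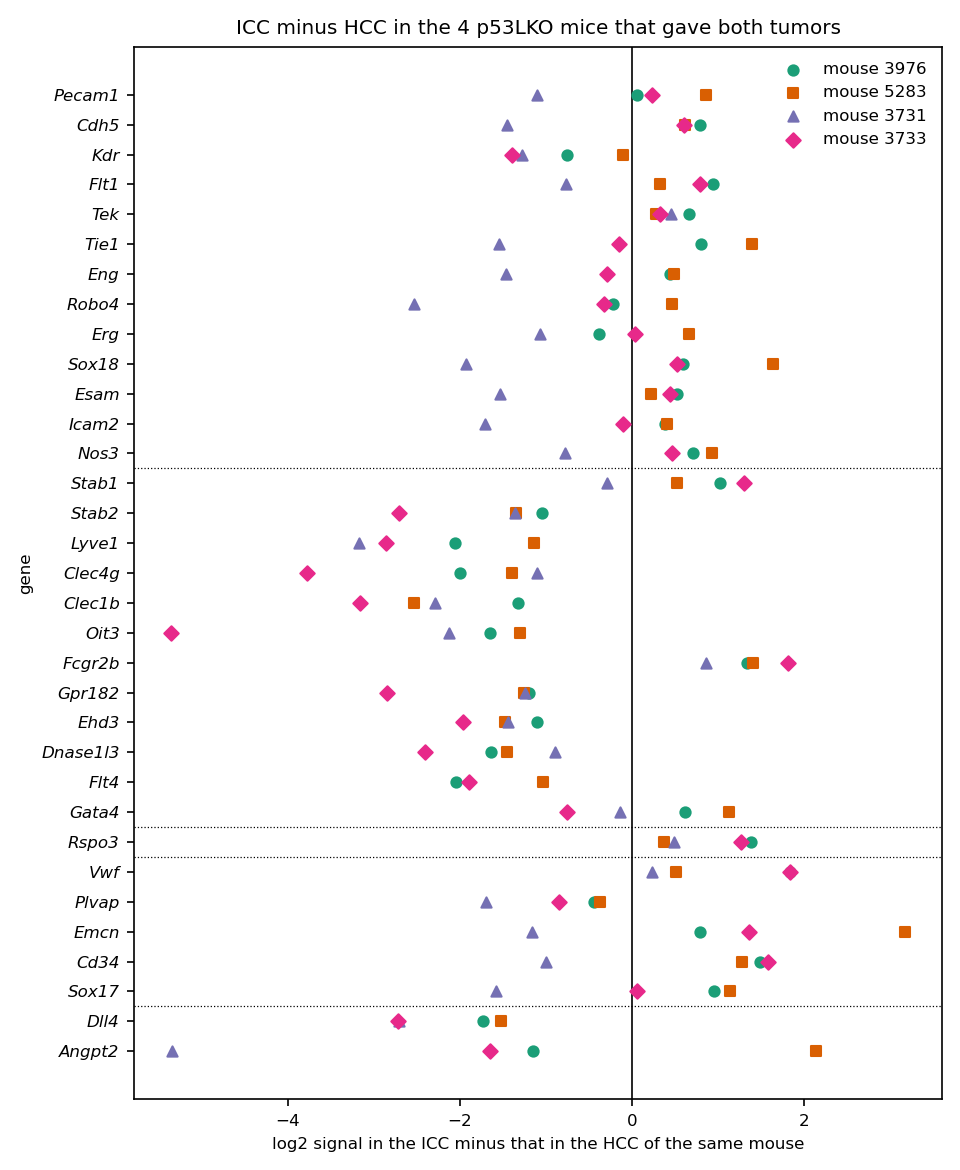
Log2 level in the ICC minus that in the HCC of the same mouse (horizontal axis) for the 33 measured members (vertical axis, by list, dotted lines between lists), with 1 symbol per mouse for the 4 p53LKO mice that gave both tumors. For 8 sinusoidal genes, Dll4, Kdr and Plvap all 4 symbols lie left of 0, and for Fcgr2b, Vwf and Rspo3 all 4 lie right of it, while Tek was not well above background in any ICC.

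ICC of p53LKO mice were also set against p53f/f HCC, where genotype and tumor type differ together and the row of the slide cannot be told apart from the group. Of the 33 members 3 were higher, where 10.8% of 17778 genes were, and 7 were lower, where 11.9% were. The higher members were Fcgr2b, Rspo3 with 1.68 (SE 0.53, adjusted p = 0.0327) and Cd34 with 1.36 (SE 0.40, adjusted p = 0.0227). Cd34 is a sialomucin of capillaries, and of some fibroblasts and blood progenitors, and its level was 1.33 to 3.37 in p53f/f HCC and 2.74 to 4.13 in ICC. A dimmer Cd34 probe did not repeat this change, with 0.10 (SE 0.33, adjusted p = 0.827) here and -0.42 in ICC against p53LKO HCC. It was well above background in 3 tumors of each HCC group and in 0 ICC, so its level in ICC is only a bound. In p53LKO HCC, Cd34 spread from 2.17 to 4.83, between and beyond the other groups.

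The 7 lower members were Dll4 and 6 of the 12 sinusoidal genes. Stab2 changed by -2.03 (SE 0.62, adjusted p = 0.0278) and Clec1b by -2.01 (SE 0.63, adjusted p = 0.0307). Dnase1l3, well above background in 3 of 5 ICC, changed by -1.88 (SE 0.53, adjusted p = 0.0188) and Lyve1, well above background in 4, by -1.81 (SE 0.57, adjusted p = 0.0313). Flt4 changed by -1.37 (SE 0.36, adjusted p = 0.0154), Ehd3 by -1.30 (SE 0.39, adjusted p = 0.0248) and Dll4 by -1.69 (SE 0.55, adjusted p = 0.0352). Each of these overlapped between the groups, with 3 or 4 of 5 ICC below every p53f/f HCC. Oit3 was short of the threshold with -2.42 (SE 0.94, adjusted p = 0.0678), and it changed by -1.48 (adjusted p = 0.064) without ICC 3733 T3, where it was not well above background. Clec4g changed by -1.88 (SE 0.83) and Gpr182 by -1.64 (SE 0.60, adjusted p = 0.0554).

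Stab1 and Gata4 did not share the lower values. Stab1, the scavenger receptor stabilin-1, which macrophages also carry, was at 2.64 to 3.01 in p53f/f HCC and at 3.17 to 3.77 in ICC. All ICC were higher, by 0.56 (SE 0.16, adjusted p = 0.0217, exact permutation p = 0.00794), under 2-fold. Gata4, the transcription factor that sets the sinusoidal program in development and is also found in stellate cells, changed by 0.34 (SE 0.28). The median of the 12 sinusoidal genes was -1.72 and that of the 5 capillary genes 0.49, against -0.18 for all genes.

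**Figure D4:**
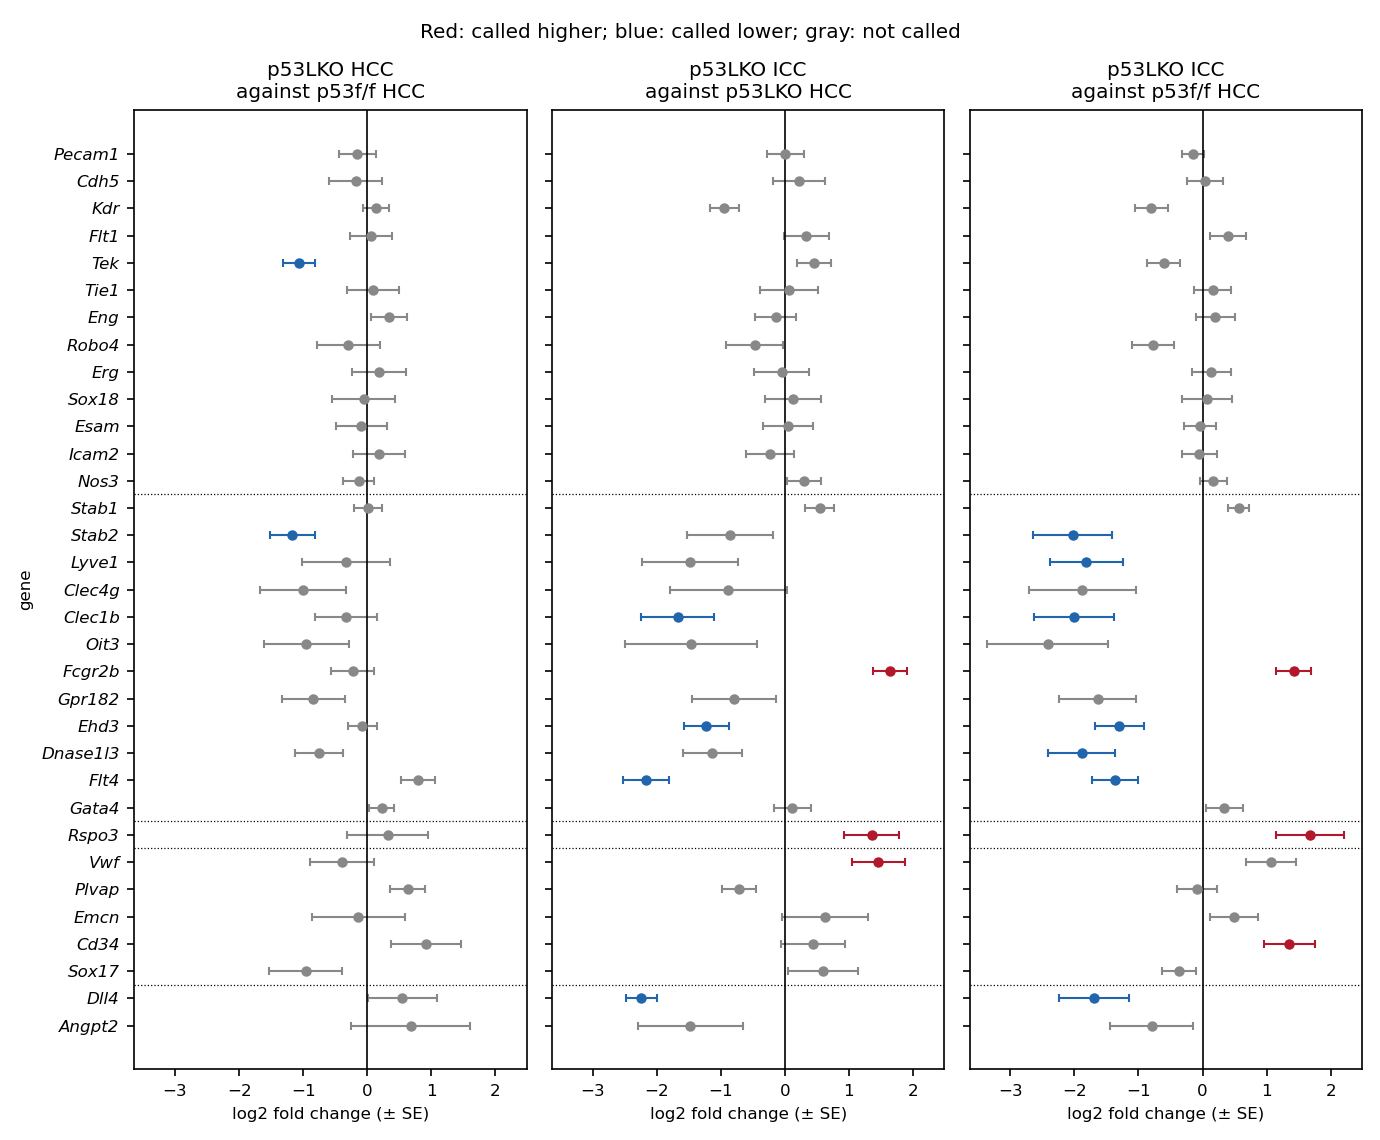
Log2 fold change (horizontal axis, point) ± SE (bar) of the 33 measured members (vertical axis, dotted lines between lists) in the 3 comparisons, with members called higher in red, called lower in blue and not called in gray. The 2 panels with ICC share its 5 arrays, and each HCC group is in 2 panels.

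Most of these calls depended on the setting or on single tumors. Fcgr2b kept its call in each of the 12 other settings and without any single tumor, and Flt4 and Dnase1l3 kept theirs without any single tumor. Without p53f/f HCC 3715 T2, p53f/f HCC 3717 T1, ICC 3731 T3 or ICC 3733 T3 the lower members numbered 4, 3, 2 and 3. The lower share of all genes was 12.5%, 11.7%, 12.3% and 10.5% there. With the tumors of mouse 3717 averaged 4 members were lower, where 11.4% of all genes were. Without p53f/f HCC 3681 T1 or ICC 3976 T8 the higher members numbered 1 each, where 10.3% and 9.62% of all genes were. With the slide as a block 1 member was higher and 0 were lower, where 6.83% and 5.71% of all genes were. Within slide 1, which held 4 p53f/f HCC and 1 ICC, Stab2 differed by -2.27 and Lyve1 by -2.21, and within slide 2, with 1 p53f/f HCC and 4 ICC, by -1.92 and -1.74. Within slide 2, Dll4 differed by -0.90 and Flt4 by -0.54, and on slide 1 neither was well above background in the ICC. Scaling to spike-in probes moved the median of all genes from -0.18 to 0.57, and gave 7 members higher and 0 lower, where 27.4% and 3.07% of all genes were.

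Sinusoidal and capillary genes were then set against each other tumor by tumor. The level of the 12 sinusoidal genes minus that of the 5 capillary genes was 1.29, 1.32, -0.26, 0.55 and 0.56 in p53f/f HCC 3681 T1, 3715 T2, 3716 T1, 3717 T1 and 3717 T2. It was 0.82, 1.23, -0.97, 0.61 and -0.28 in p53LKO HCC 3976 T1, 5283 T7, 3731 T2, 3733 T1 and 3975 T4. In ICC 3731 T3, 3733 T3, 3976 T8, 3977 T5 and 5283 T20 it was -1.22, -2.24, -1.03, 0.39 and -0.75. Because each gene is centered on its mean over the 15 arrays, the zero of this difference has no meaning of its own and tumors can only be set against each other. The values of 3 of 5 ICC lay below every p53LKO HCC and those of 4 of 5 below every p53f/f HCC, and the 3 groups overlapped.

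The group means were 0.69 ± 0.65 in p53f/f HCC, 0.28 ± 0.89 in p53LKO HCC and -0.97 ± 0.95 in ICC (SD, n = 5 each), a description with no test because the genes were chosen with results known. The differences were -0.41 between the HCC groups, -1.25 between ICC and p53LKO HCC and -1.66 between ICC and p53f/f HCC. The lowest HCC, p53LKO HCC 3731 T2, had a sinusoidal level of 0.28 and the highest capillary level of the 15 tumors, 1.25. The lowest ICC, 3733 T3, had the lowest sinusoidal level, -2.03, beside a capillary level of 0.21. The sinusoidal level was -0.64 ± 0.94 in ICC, and the capillary level was 0.32 ± 0.26 there, against -0.16 ± 0.82 in p53LKO HCC and -0.17 ± 0.51 in p53f/f HCC.

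**Figure D5:**
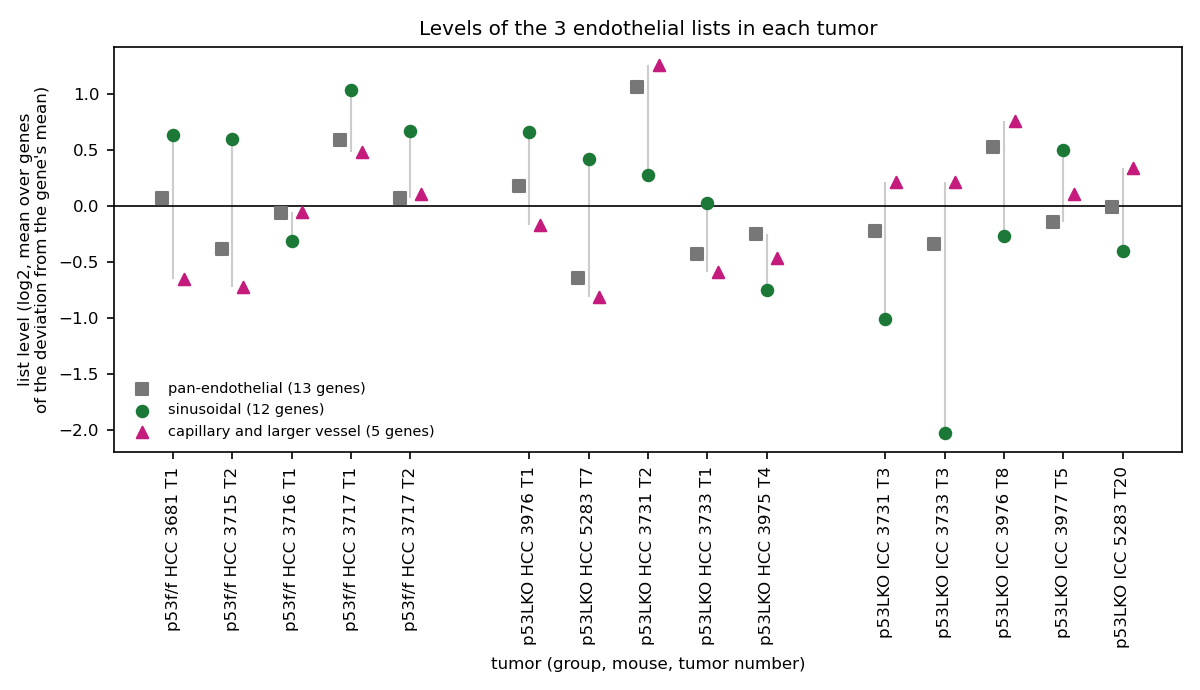
Level of the pan-endothelial, sinusoidal and capillary lists (vertical axis, log2, mean over the genes of the deviation from each gene's mean over 15 arrays) in each tumor (horizontal axis). The sinusoidal level is lowest in ICC 3733 T3, at -2.03, and the capillary level is highest in p53LKO HCC 3731 T2, at 1.25, and zero marks only the mean of the 15 arrays.

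Plvap, Emcn and Sox17 of the capillary list passed the thresholds in 0 comparisons. Plvap, the diaphragm protein of fenestrae and caveolae, changed by -0.72 in ICC against p53LKO HCC (SE 0.27, adjusted p = 0.0465), opposite in sign to Vwf, and by 0.63 (SE 0.28) between the HCC groups. Emcn, the sialomucin endomucin of capillaries and veins, changed by 0.63 (SE 0.67) and Sox17, a transcription factor of arteries, by 0.59 (SE 0.55) in ICC against p53LKO HCC. The capillary list therefore had no common direction beyond its median.

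Vascular genes outside the 34 members were read from other lists. Of 7 measured arterial and venous genes, 2 were higher in ICC against p53LKO HCC, namely Gja4, the connexin 37 of arterial endothelium, with 4.10 (SE 0.47, adjusted p = 0.000133) and Efnb2, the arterial ligand ephrin-B2, with 3.09 (SE 0.46, adjusted p = 0.000589), with no overlap. Against p53f/f HCC the same genes were higher by 3.88 and 3.03. Epithelial cells can also express Efnb2, and of 7 tested biliary markers 4 were higher and 1 was lower in ICC in each comparison, with a list level of 1.41 to 1.93 in ICC, -1.75 to 1.05 in p53f/f HCC and -1.87 to -0.10 in p53LKO HCC. Of 8 hepatocyte markers 5 were lower in ICC in each comparison, with list levels of -2.58 to 0.04 against 0.17 to 1.28 and 0.07 to 0.61. Their part in the vascular results was not tested.

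Of 10 other sinusoidal genes 2 were higher in ICC than in p53LKO HCC and 1, Bmp6, was lower. Over all genes 13.2% and 15.2% were. The higher ones were Bmp2 with 2.37 (SE 0.48, adjusted p = 0.00291) and Thbd, the anticoagulant thrombomodulin, with 1.66 (SE 0.31, adjusted p = 0.00188). Against p53f/f HCC 3 were higher and 2 lower, where 10.8% and 11.9% of all genes were. Bmp6, the ligand by which sinusoidal cells induce hepcidin in hepatocytes, was well above background in 5 p53f/f HCC, 4 p53LKO HCC and 0 ICC. It was at least 2.48-fold lower in ICC than in p53f/f HCC (adjusted p = 0.000877) and at least 1.09-fold lower than in p53LKO HCC (adjusted p = 0.0375), bounds set by the background. Between the HCC groups, 0 of these 10 genes were higher in p53LKO HCC and 2 were lower, where 5.19% and 10.8% of all genes were. F8, coagulation factor VIII, which sinusoidal cells make, was 1 of the 2. It was lower by 1.75 on the log2 scale (a change of -1.75, SE 0.34, adjusted p = 0.00328) in all 5 tumors.

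Among 3 measured genes of endothelial activation, Vcam1, an adhesion molecule for leukocytes, was higher in ICC by 1.56 (SE 0.29) and 1.89 (SE 0.23) against p53LKO and p53f/f HCC, and Selp, P-selectin, was lower in p53LKO HCC than in p53f/f HCC by 1.18 (a change of -1.18, SE 0.19), all without overlap. Vegfa, the main angiogenic ligand, named after its values were seen, changed by -0.23 (SE 0.25), 0.25 (SE 0.28) and 0.02 (SE 0.22) in p53LKO against p53f/f HCC, ICC against p53LKO HCC and ICC against p53f/f HCC, and of 8 VEGF and angiopoietin ligands and coreceptors 1 was higher and 1 lower in ICC against p53LKO HCC. Of 24 tested other vascular endothelial genes 2 were higher and 1 lower there, with a median of -0.06. Nostrin, which traffics endothelial nitric oxide synthase, was higher by 1.73 (SE 0.27, adjusted p = 0.000756) without overlap.

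Of 3 measured lymphatic markers, Pdpn, podoplanin, was higher by 5.07 (SE 0.57) and Prox1 lower by 1.18 (a change of -1.18, SE 0.25) in ICC against p53LKO HCC. Prox1 is also a hepatocyte gene, and Pdpn a gene of fibroblasts and some epithelia. The third marker, Reln, was called in 0 comparisons, and Mmrn1 was well above background on 3 arrays of 15. Red blood cell genes were lower in ICC against p53LKO HCC for 4 of 4, with list levels of -1.60 to -0.70 in ICC and -0.29 to 0.92 in p53LKO HCC, and their relation to the vascular genes was not tested.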

How the data were processed

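Whole-tumor RNA of 15 tumors was measured on 1-color Agilent arrays, 1 array per tumor. The deposited scanner files hold intensities that the authors extracted with Agilent Feature Extraction 10.7.3.1 (submitters' processing notes), background-corrected by that program, with probe positions of build mm9. The authors' value table, as deposited, holds log2 values, which correlated at 0.99989 to 0.99998 with processed signals scaled to the 75th percentile and centered per probe, on the 10 HCC arrays for HCC columns and on the 10 p53LKO arrays for ICC columns. It was used as an alternative for the HCC contrast alone, since ICC and HCC columns have different centers, and 0 of its columns were unmapped.

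Spots flagged as outliers and control spots were left out, spots of a probe were averaged, and the array's 75th percentile of log2 processed signals was subtracted. Probes entered a test when 3 or more arrays of either group compared held them well above background. Each pair of groups was fitted on its own 10 arrays with limma 3.58.1 in R 4.3.3, and called means an adjusted p under 0.05 (Benjamini-Hochberg, over all probes tested) with a change over 2-fold. A gene is given by its brightest probe over the 15 arrays, and a single member's groups also by a 2-sided exact permutation test over 252 splits of 10 arrays. The ICC comparisons share the ICC arrays, and each HCC group enters a pair of comparisons. Members called without overlap are given on every tumor, as are at most 3 such genes per other list by name and change. Kdr, Vegfa, Bmp6, Reln and second probes named outside that rule were chosen after their values were seen, or because their direction differed from the brightest probe. Members, lists and tests were chosen with earlier results of these data known. The limma step was tested on simulated data. Alternatives covered background correction, scaling, filters, arrays in the fit, slide, row, the methods' t-test, threshold, probe choice and single tumors. Figures were drawn with matplotlib 3.10.9 in Python 3.11.15.

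The pairing of tumors rests on the mouse numbers of the labels. Residuals of the 4 same-mouse pairs correlated at -0.14 to 0.07, and those of the 21 other pairs of an HCC and an ICC at -0.26 to 0.28. The number of arrays limits the precision.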

Additional observations from a re-analysis of the deposited data

Results flagged for a closer look

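Of 98 groups of 5 tumors tested, 6 held a tumor whose gap to its nearest neighbor was over 0.71 of the group's range, and chance gives about 1 in 20 groups. ICC 3976 T8 had a Cdh5 level of 2.18, with the other ICC at 1.14 to 1.44, and an Erg level of -1.55, with the others at -2.79 to -2.60, among them 2 whose Erg probe was not well above background. In p53f/f HCC 3716 T1, Clec4g was at 1.39 against 3.36 to 3.95 in the other p53f/f HCC, and Fcgr2b was at -0.17 against 0.96 to 1.37. Plvap was at 1.80 in p53f/f HCC 3681 T1, against 2.77 to 3.13 in the others. Angpt2 was at 2.31 in p53f/f HCC 3717 T1, against -1.26 to -0.49 in the others.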

How the results depend on the processing

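In p53LKO against p53f/f HCC, the higher members numbered 5 with spike-in scaling and 1 by adjusted p alone. Among all genes 34.9% and 13.8% were higher there. The 2 lower members became 1 with normexp background correction, quantile normalization, no filter, a filter on every array, all 15 arrays in 1 model, the slide or the row as a block, upper rows alone and the methods' t-test, and 0 with spike-in scaling or with the tumors of mouse 3717 averaged. The shares of all genes called lower were 3.56% to 10.9% in the settings with 1 member. They were 4.42% and 9.69% in those with 0. In ICC against p53LKO HCC, the 3 higher members became 1 with the methods' t-test, the row as a block and the mouse as a replicate block. In these settings 10.6%, 10.4% and 11% of all genes were higher. The 4 lower members became 2 with quantile normalization, with the 75th percentile of probes well above background on all arrays, with the filter on every array, the methods' t-test, the row as a block and lower rows alone, 10 with the mouse as a replicate block and 8 in the 4 mice with both tumors unpaired. All-gene shares called lower ran from 8.27% to 16.5% in the settings with 2, and were 13.7% and 14.4% in the others. In ICC against p53f/f HCC, the 3 higher members became 7 with spike-in scaling, and 1 with the slide as a block or the methods' t-test. Among all genes 27.4%, 6.83% and 9.3% were higher in these settings. The 7 lower members became 0 with spike-in scaling or the slide as a block, 4 with the filter on every array or mouse 3717 averaged, and 1 with the methods' t-test. In the same order 3.07%, 5.71%, 10%, 11.4% and 9.01% of all genes were lower. The cause of these shifts was not tested.

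Leaving out each tumor in turn gave 0 to 3 lower members in p53LKO against p53f/f HCC, with 0 higher in each case. It gave 2 to 4 higher and 3 to 5 lower in ICC against p53LKO HCC, and 1 to 4 higher and 2 to 9 lower in ICC against p53f/f HCC. Shares of all genes in these fits were 4% to 6.64% higher and 9.54% to 11.5% lower in the HCC contrast. They were 11% to 14.4% and 13.7% to 16.9% in ICC against p53LKO HCC. In ICC against p53f/f HCC they were 9.57% to 11.5% and 10.5% to 13%. The lower members of the HCC contrast numbered 0 without p53LKO HCC 3733 T1 and 1 without p53f/f HCC 3681 T1, 3717 T1 or 3717 T2 or p53LKO HCC 3976 T1 or 3975 T4. No change reversed its direction among called members. The difference of the sinusoidal and capillary levels ranged from -0.65 to -0.10, -1.59 to -0.93 and -2.00 to -1.34 in the 3 comparisons. Signal over background limits Wnt2, Tek in ICC and some p53LKO HCC, Trp53 in some p53LKO tumors and the other genes named above as at background.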
